A study of Mus musculus with 6 samples.

Results

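The proteins that bind, take up and activate long-chain fatty acids were examined in the liver of KRAP-deficient mice. The 10 genes were listed by name, and all probe sets annotated to exactly one of them were taken, which gave 18 of 45037 probe sets and 9 of 18193 named genes. No probe set was listed under Acsl1 in the annotation used, and Acsl1 was not analysed here. Total RNA came from the livers of 3 littermate pairs, each a KRAP-/- and a wild-type mouse, with 1 array per mouse, all 32 weeks old and on normal chow. In the KRAP-/- mice a run of exons holding much of the coding region was replaced by a neomycin cassette in every tissue, and the line was backcrossed to C57BL6/J. The wild-type littermates carried neither the deletion nor the cassette. The sex of the array mice is not given in the sources used here.

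A fatty acid that reaches a liver cell crosses the membrane with the help of Cd36 and fatty acid transport proteins of the Slc27 family. Acyl-CoA synthetases of the Acsl family then couple it to coenzyme A, which holds it in the cell and commits it to storage, membrane lipid or oxidation. Fatty acid binding proteins (Fabp) are small cytosolic carriers, each named for the tissue where it was first found. Fabp1 is the abundant form of liver, Fabp2 of intestine, Fabp4 of adipocytes, macrophages and capillary endothelium, Fabp5 of epidermis and macrophages, and Fabp7 of brain.

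Signals were divided by the median signal of their array, and every level below is in that unit. The number of arrays limits the precision. Array medians were 20.2 to 23.4 in KRAP-/- and 19.1 to 22.6 in wild-type livers, and the 3′ to 5′ ratio of the beta-actin control was 2.28 to 2.32 in KRAP-/- and 2.01 to 2.65 in wild-type livers. The one probe set of KRAP itself (now Itprid2) read 21.6, 21.3 and 20.0 in KRAP-/- livers of pairs 1, 2 and 3, against 23.9, 24.5 and 22.3 in their wild-type littermates. Whether it lies in the deleted exons is not given, so it does not check the labels. All 6 hepatocyte markers were bright in every liver, with a summed signal of 3370 to 3840 in KRAP-/- and 3560 to 3640 in wild-type. By limma, blocked on the pair, 123 probe sets were higher and 279 lower in KRAP-/- liver over 28531 tested, and this split depended on the scaling (170 and 205 with values as deposited, 151 and 208 after quantile normalization).

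Fabp5, Acsl3 and Acsl5 were lower in KRAP-/- liver, and no gene of the set was higher. At an adjusted p under 0.05 from limma, 4 of the 18 probe sets were lower and 0 were higher. Of all tested probe sets 0.978% were lower and 0.431% higher by the same measure. The members were chosen with earlier results of these data known, so these shares and those below do not test the set. A further 12 member probe sets did not pass, and 2 of Fabp4 had a mean under 0.5 and were not tested. At an unadjusted p under 0.05, 5 member probe sets were lower and 3, all of Cd36, were higher, against 9.3% and 5.58% of all tested probe sets. Over the brightest probe set of each of the 9 genes the median log2 fold change was -0.02, beside -0.04 over all tested probe sets.

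**Figure D1:**
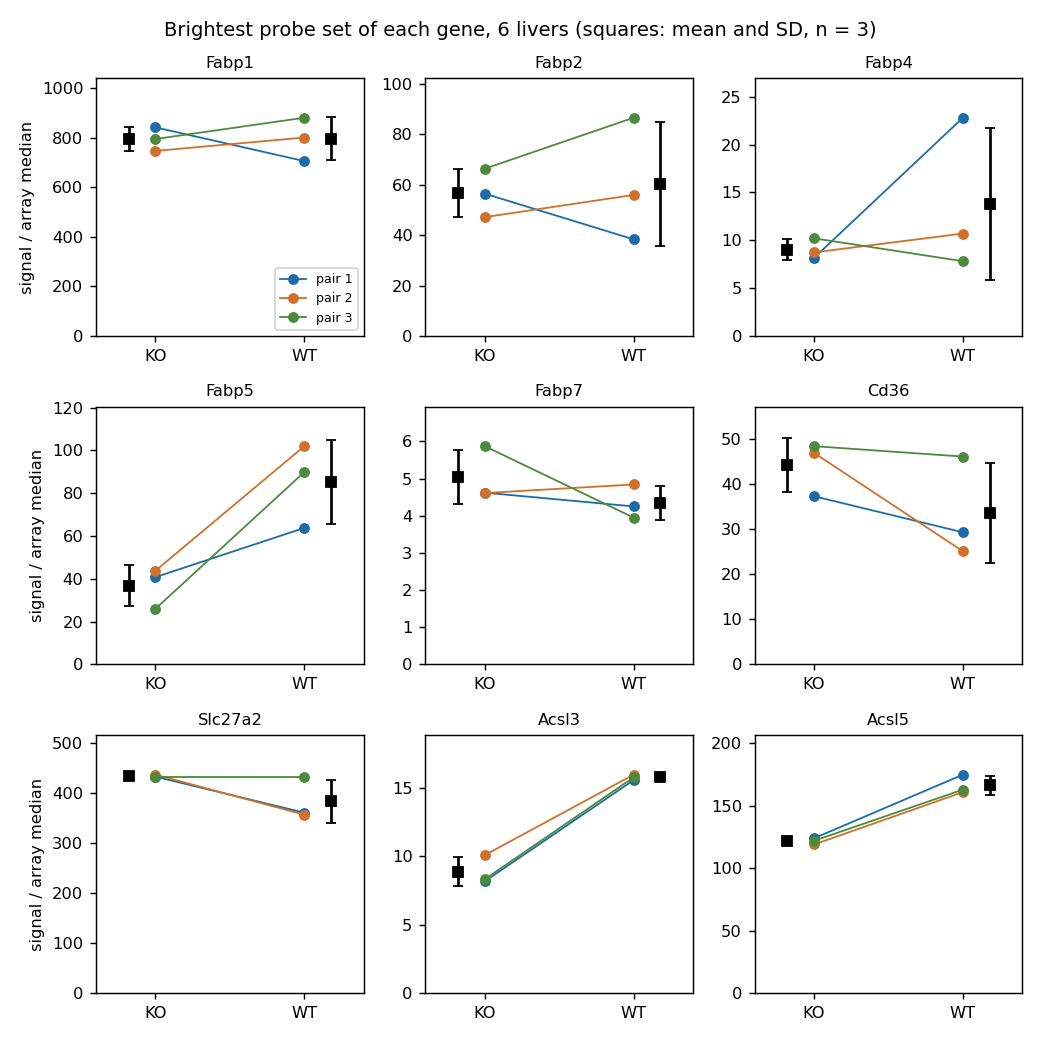
Signal divided by the array median (linear axes) at the brightest probe set of 9 genes in KRAP-/- (KO, left) and wild-type (WT, right) livers; each point is a mouse, each line a littermate pair, and squares with bars give mean and SD of 3 mice. The KO points lie below all WT points for Fabp5, Acsl3 and Acsl5, and the genotypes overlap for the other 6 genes.

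Among the tested probe sets the groups did not overlap at the same 4, with KRAP-/- below wild-type in each, while 12.3% of all tested probe sets had all KRAP-/- livers below all wild-type livers. No tested probe set of these genes had all KRAP-/- livers above, against 7.80% of all. The methods' own criterion asked for a difference of 1.5-fold or more in the same direction within all 3 pairs, and was applied here to all probe sets, dim ones included. It took 5 of the 18 as lower and 0 as higher, beside 2.88% and 2.30% of all 45037. The 5 were both probe sets of Fabp5, the brightest and the dimmest of Acsl3, and the dimmest of Fabp4.

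Fabp5 showed the largest change among the tested probe sets of the carriers. Its brighter probe set (1416021_a_at) read 40.8, 43.8 and 26.0 in KRAP-/- livers of pairs 1, 2 and 3, against 63.8, 102 and 89.9 in the wild-type littermates. All KRAP-/- values lay below all wild-type values. It averaged 36.9 ± 9.50 over the KRAP-/- livers and 85.2 ± 19.5 over the wild-type livers (SD, n = 3 each), fitted by limma as a log2 change of -1.22 ± 0.17 (standard error; adjusted p = 0.012). The second probe set (1416022_at) read 10.8, 11.4 and 8.07 in KRAP-/- livers, against 16.4, 30.2 and 27.6 in wild-type livers. Its fitted change was -1.26 ± 0.19 (adjusted p = 0.016 by limma), close to that of the first. The size differed between pairs in the same order at both. The ratio of KRAP-/- to wild-type was 0.641, 0.430 and 0.290 at the brighter probe set and 0.660, 0.377 and 0.292 at the other. Pair 1, with the lowest wild-type level, had the mildest reduction, and pair 3, with the lowest KRAP-/- level, the strongest. Without pair 1, 2 or 3 the log2 fold change at the brighter probe set was -1.50, -1.21 and -0.93, and it passed each time.

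Macrophages also make Fabp5, and the summed signal of their markers was lower in KRAP-/- liver. Of 7 macrophage markers, 1 was lower, none higher and 6 did not pass, with a median log2 fold change of -0.43. Over all tested probe sets 0.978% were lower by the same measure. Their summed signal was 174 to 184 in KRAP-/- and 202 to 237 in wild-type livers, without overlap. This was not particular to macrophages, as the sums of keratinocyte markers and of nerve and glia markers did not overlap either. Of single tested probe sets 12.3% had all KRAP-/- livers below all wild-type livers. Clec4f, a lectin of Kupffer cells, averaged 23.1 ± 0.805 over the KRAP-/- livers and 33.5 ± 1.67 over the wild-type livers (SD, n = 3 each), and was lower by limma (log2 change -0.54, adjusted p = 0.025). Adgre1, a surface receptor of mature macrophages, had -0.43 (adjusted p = 0.15). The largest changes were -0.73 for Marco (adjusted p = 0.40) and -0.61 for Cd68 (adjusted p = 0.15). Marco overlapped between the genotypes, with ratios of 1.51, 0.277 and 0.524 in pairs 1, 2 and 3. KRAP-/- was above wild-type at 2 of the 7 markers in pair 1 and at none in pairs 2 and 3. The smallest changes were -0.14 for Csf1r (adjusted p = 0.53) and -0.12 for Vsig4 (adjusted p = 0.54). At an unadjusted p under 0.05, 4 of the 7 were lower, against 9.3% of all tested probe sets. Fewer cells of a type and less RNA per cell cannot be told apart in whole liver, and the part of the macrophage markers in the Fabp5 result was not tested. Of 4 keratinocyte markers, whose cells are rich in Fabp5, 2 were tested and neither passed, with log2 fold changes of 0.17 for Krt5 (adjusted p = 0.92) and -0.14 for Krt10 (adjusted p = 0.77). The 2 not tested were dim, with means of 0.101 in KRAP-/- and 0.516 in wild-type livers for Krt14, where the groups did not overlap, and 0.209 in KRAP-/- and 0.444 in wild-type livers for Krt1, where they did. The summed signal of the 4 was 3.14 to 4.01 in KRAP-/- and 4.07 to 4.60 in wild-type livers, without overlap, and its part in the Fabp5 result was not tested either.

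**Figure D2:**
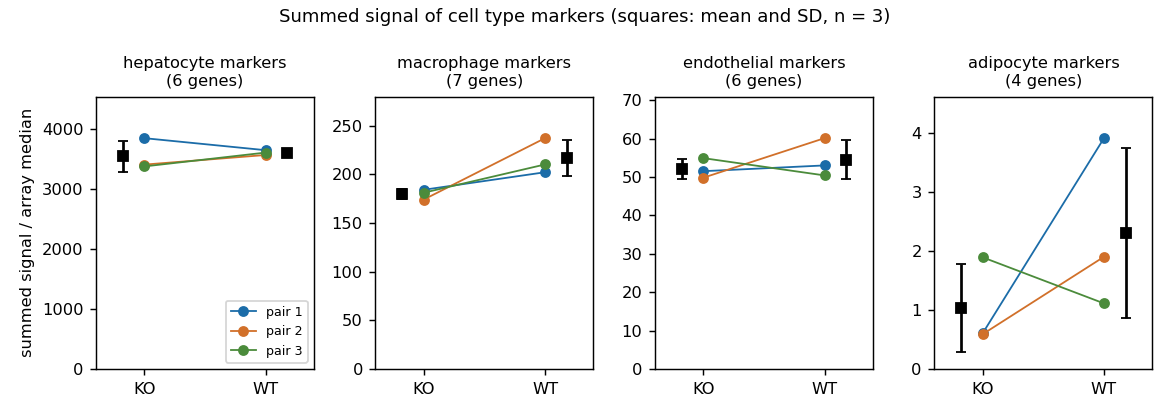
Summed signal, in units of the array median on linear axes, of the markers of 4 cell types in KRAP-/- (KO, left) and wild-type (WT, right) livers; lines join littermates, and squares with bars are mean and SD of 3 mice. The macrophage sums do not overlap (174 to 184 in KO, 202 to 237 in WT), and the adipocyte sum is highest in the wild-type liver of pair 1, at 3.91. The keratinocyte sums and the nerve and glia sums, not drawn, do not overlap either.

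Fabp4, the adipocyte carrier, gave no single direction. Its brightest probe set (1417023_a_at) read 8.16, 8.73 and 10.2 in KRAP-/- livers, against 22.8, 10.7 and 7.81 in wild-type livers. The wild-type liver of pair 1 stood apart and the other 5 overlapped. By limma it differed by -0.46 ± 0.28 on the log2 scale (standard error; adjusted p = 0.48), and by 0.05 without pair 1 (adjusted p = 0.96). The next probe set (1451263_a_at) read 4.30, 5.39 and 9.70 in KRAP-/- livers, against 9.28, 4.73 and 2.90 in wild-type livers, with ratios of 0.463, 1.14 and 3.35 in pairs 1, 2 and 3. Here the log2 difference was 0.27 ± 0.41 (standard error; adjusted p = 0.80), and -0.46 without pair 3. The pairs thus ran in opposite directions at the same probe set. Both untested probe sets were dim. One (1424155_at) read 0.0422, 0.399 and 0.237 in KRAP-/- livers, against 0.719, 0.765 and 0.550 in wild-type livers, and the other (1425809_at) read 0.339, 0.445 and 0.686 in KRAP-/- livers, against 0.476, 0.544 and 0.383 in wild-type livers. The deposited values hold no detection calls, so signals this low are not shown to be above background.

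The adipocyte markers were also uneven between livers. Their summed signal, over 4 of 6 markers with a probe set, was 0.608, 0.590 and 1.89 in KRAP-/- livers of pairs 1, 2 and 3, against 3.91, 1.90 and 1.11 in wild-type livers. Like the brightest Fabp4 probe set, it was highest in the wild-type liver of pair 1 and, among the KRAP-/- livers, in that of pair 3. Adipoq, adiponectin, averaged 0.143 ± 0.111 over the KRAP-/- livers and 1.11 ± 0.951 over the wild-type livers (SD, n = 3 each; log2 fold change -2.51, adjusted p = 0.25), and Retn, resistin, had -1.17 (adjusted p = 0.67). Neither marker passed, and Lep and Cidec averaged under 0.5 in both genotypes. The part of adipocyte RNA in the Fabp4 values was not tested. Of 6 endothelial markers none passed and none had an unadjusted p under 0.05, with a summed signal of 49.8 to 54.9 in KRAP-/- and 50.4 to 60.1 in wild-type livers. Among them Lyve1 and Cdh5 had the largest changes, -0.20 (adjusted p = 0.66) and -0.09 (adjusted p = 0.84).

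Fabp4 and Fabp5 lie near each other in a cluster of carrier genes on chromosome 3. In the RefSeq table (GRCm38.p6) the order of protein-coding genes is Pag1, Fabp5, Pmp2, Fabp9, Fabp4, Fabp12 and Impa1. Fabp12, a little-studied carrier, read 0.725, 0.462 and 0.258 in KRAP-/- livers, against 0.727, 0.812 and 0.726 in wild-type livers, a log2 difference of -0.77 ± 0.57 (standard error; adjusted p = 0.57). Fabp9, the testis carrier, and Pmp2, the myelin carrier, were too dim to be tested. Impa1, an inositol monophosphatase next to the cluster, had -0.21 (adjusted p = 0.31) and -0.29 (adjusted p = 0.18) at its tested probe sets. Pag1, a membrane adaptor on the other side, had -0.13 at its brightest (adjusted p = 0.73). Among the tested probe sets of the cluster and of both flanking genes, those of Fabp5 were the ones that passed.

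Fabp1, the main carrier of the hepatocyte, had near-equal mean signals in both genotypes, at the top of the range of the arrays. Its signal was 86.8% to 99.6% of the brightest probe set of the same array at one probe set and 83.3% to 89.1% at the other, and whether signals this high are compressed was not tested. Its brighter probe set (1417556_at) read 842, 747 and 795 in KRAP-/- livers, against 706, 801 and 881 in wild-type livers. The groups overlapped, and the means were 795 ± 47.3 in KRAP-/- livers and 796 ± 88.0 in wild-type livers (SD, n = 3 each). The 95% interval of the log2 fold change was -0.21 to 0.21 around 0.00 (adjusted p = 1.0). The other probe set (1448764_a_at) averaged 742 ± 20.5 over the KRAP-/- livers and 721 ± 39.5 over the wild-type livers (SD, n = 3 each), a log2 difference of 0.04 with an interval of -0.13 to 0.22 (adjusted p = 0.84). At both, KRAP-/- was above wild-type in pair 1 and below it in pairs 2 and 3.

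Fabp2, the intestinal carrier (1418438_at), read 56.4, 47.1 and 66.3 in KRAP-/- livers, against 38.3, 55.9 and 86.5 in wild-type livers. The wild-type livers spread more widely than the KRAP-/- livers. They differed by -0.02 on the log2 scale, with a 95% interval of -0.38 to 0.34 (adjusted p = 0.96). Fabp7, the brain carrier (1450779_at), read 4.62, 4.61 and 5.87 in KRAP-/- livers, against 4.25, 4.84 and 3.95 in wild-type livers, a log2 fold change of 0.21 with an interval of -0.17 to 0.59 (adjusted p = 0.61). Both genes overlapped between the genotypes. Of 5 enterocyte markers, 4 had a probe set and neither of the 2 tested passed (Apoa4 -0.24, adjusted p = 0.33, and Alpi 0.19, adjusted p = 0.92). Their summed signal was 47.4 to 61.0 in KRAP-/- and 50.2 to 86.1 in wild-type livers, mostly from Apoa4, which hepatocytes also make. Of 5 nerve and glia markers, 3 had a probe set and neither of the 2 tested passed (Sox10 -0.44, adjusted p = 0.55, and Gfap -0.36, adjusted p = 0.71). The sums of the 3 were 2.21 to 3.05 in KRAP-/- and 3.17 to 3.52 in wild-type livers, without overlap. The part of these cell types in the Fabp2 and Fabp7 values was not tested.

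Both uptake proteins had higher means in KRAP-/- liver, and neither passed the test. Cd36, the fatty acid translocase, read 37.3, 46.9 and 48.4 in KRAP-/- livers at its brightest probe set (1450883_a_at), against 29.3, 25.1 and 46.1 in wild-type livers. The wild-type liver of pair 3 lay among the KRAP-/- livers. The fitted log2 fold change of 0.44 ± 0.14 (standard error) had a 95% interval of 0.12 to 0.76 and an adjusted p of 0.20 by limma. The other probe sets, 1423166_at and 1450884_at, had 0.29 (adjusted p = 0.25) and 0.38 (adjusted p = 0.29). The ratio was above 1 in all 9 combinations of pair and probe set, from 1.05 to 1.87, though the 3 probe sets read the same gene in the same RNA. Without pair 3 the brightest had a log2 fold change of 0.63 and passed (adjusted p = 0.031), and without pair 2 it had 0.21 (adjusted p = 0.60).

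Slc27a2, a very long-chain acyl-CoA synthetase that also acts as a fatty acid transporter in liver (1416316_at), read 432, 436 and 432 in KRAP-/- livers, against 360, 356 and 432 in wild-type livers. Pairs 1 and 2 had ratios of 1.20 and 1.22, and in pair 3 the littermates were level, with a ratio of 1.0. Over all pairs it differed by 0.18 ± 0.08 on the log2 scale (standard error), with an interval of -0.01 to 0.38 (adjusted p = 0.36). Slc27a2 and the gene of KRAP both lie on chromosome 2, and whether this bears on the Slc27a2 values was not tested. Pair 3 was also the pair in which Cd36 differed least.

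**Figure D3:**
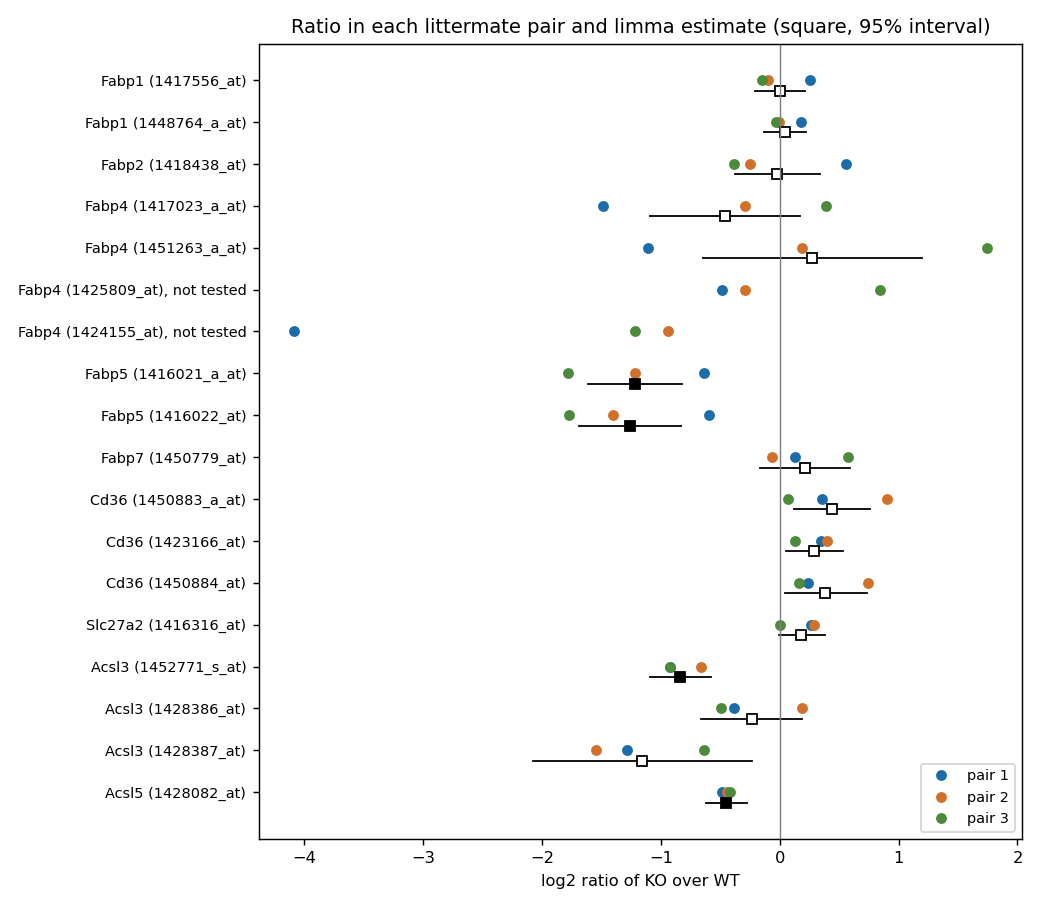
Log2 ratio of KRAP-/- (KO) over wild-type (WT) signal for the 18 probe sets, with a coloured point for each littermate pair and a square with a 95% interval for the limma estimate, filled where the adjusted p was under 0.05. The points of Acsl5 and of the brightest Acsl3 probe set lie close together below 0, those of Fabp5 spread with ratios of 0.290 to 0.660, and those of Fabp4 fall on both sides of 0.

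Of the acyl-CoA synthetases, Acsl5, a form of mitochondria and endoplasmic reticulum, had the most even change between pairs. It read 124, 119 and 122 in KRAP-/- livers (1428082_at), against 175, 161 and 163 in wild-type livers. The groups were far apart relative to their spread, with means of 122 ± 2.90 in KRAP-/- livers and 166 ± 7.29 in wild-type livers (SD, n = 3 each) and ratios of 0.713, 0.736 and 0.747 in pairs 1, 2 and 3. By limma the change was -0.45 ± 0.08 on the log2 scale (standard error; adjusted p = 0.026). The call was lost when deposited values were used unscaled (-0.40, adjusted p = 0.16) and when pair 2 was left out (-0.46, adjusted p = 0.064). Since no pair reached a ratio of 1/1.5, Acsl5 did not meet the criterion of 1.5-fold in each pair.

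Acsl3, the synthetase of endoplasmic reticulum and lipid droplets, was lower at its brightest probe set and uneven over the rest. That probe set (1452771_s_at) read 8.18, 10.1 and 8.33 in KRAP-/- livers, against 15.6, 16.0 and 15.8 in wild-type livers. It averaged 8.87 ± 1.07 over the KRAP-/- livers and 15.8 ± 0.197 over the wild-type livers (SD, n = 3 each) and did not overlap. Its log2 fold change of -0.84 ± 0.11 (standard error) passed by limma (adjusted p = 0.0099), and passed again without each pair in turn. The ending _s_at marks probe sets whose probes may match more than 1 transcript. The middle probe set (1428386_at) read 3.06, 4.03 and 2.53 in KRAP-/- livers, against 4.0, 3.55 and 3.56 in wild-type livers, a log2 fold change of -0.23 with an interval of -0.66 to 0.19 (adjusted p = 0.61). The dimmest (1428387_at) read 0.835, 0.240 and 0.871 in KRAP-/- livers, against 2.03, 0.702 and 1.35 in wild-type livers, a log2 difference of -1.16 ± 0.41 (standard error; adjusted p = 0.24). It was lower in each pair, but the groups overlapped. The call for Acsl3 therefore rested on 1 of 3 probe sets.

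The promoters of Acsl3 and Acsl5, genes of one family that were both lower, are given from RefSeq (GRCm38.p6), from 250 bases before to 50 bases after the annotated start, 5′ to 3′ on the strand of the gene. The table held such a window for 8 of the 10 genes and none for Fabp5 or Fabp4. Acsl3 lies at chr1:78657575-78657874 and Acsl5 at chr19:55253119-55253418, both on the plus strand. Capitals mark the GC box GGGCGG on either strand, the only one of the 6 motifs searched that was found in these windows.

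Acsl3: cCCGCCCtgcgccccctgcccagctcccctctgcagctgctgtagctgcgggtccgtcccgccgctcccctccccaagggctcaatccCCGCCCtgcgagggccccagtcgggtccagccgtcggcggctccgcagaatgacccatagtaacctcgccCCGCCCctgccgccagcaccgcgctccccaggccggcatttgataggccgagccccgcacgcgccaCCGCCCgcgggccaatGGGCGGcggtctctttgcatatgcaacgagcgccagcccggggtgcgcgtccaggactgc

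Acsl5: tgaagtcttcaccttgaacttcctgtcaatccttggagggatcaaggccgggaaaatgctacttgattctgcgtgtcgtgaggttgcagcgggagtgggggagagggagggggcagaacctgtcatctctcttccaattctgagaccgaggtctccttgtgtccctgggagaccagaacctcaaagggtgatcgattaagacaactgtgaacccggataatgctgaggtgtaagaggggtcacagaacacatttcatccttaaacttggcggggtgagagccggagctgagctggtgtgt

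The Acsl3 window held 5 GC boxes and had a GC content of 74.0%, and the Acsl5 window held none, with 53.0%. Of 32851 promoter windows of the same length, 35.7% held at least 1 GC box. The sterol response element TCACNCCAC, the E-box CACGTG, the direct repeat bound by PPARs (a pair of AGGTCA copies 1 base apart), the hexamer AGGTCA alone and the TATA box TATAAA were searched on both strands as well. They were found in 1.24%, 7.15%, 0.0396%, 16.3% and 13.6% of all windows, the hexamer being part of the direct repeat. None of them was in the Acsl3 or Acsl5 window. The windows of Cd36 and Slc27a2, the uptake proteins, each held 1 hexamer and 2 GC boxes, that of Fabp1 held 2 hexamers and a TATA box, and that of Fabp7 held 1 hexamer. Acsl1, which had no probe set, had a window with 7 GC boxes and another with a sterol response element. The Fabp2 window held none of the motifs. These are matches of letters, not binding sites.

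The 4 calls for Fabp5, Acsl3 and Acsl5 needed limma's intensity trend and the limit on dim probe sets. Without the trend, or with all 45037 probe sets in the test, no member passed (adjusted p of 0.38 to 0.43 for these 4), while 5 and 6 member probe sets had an unadjusted p under 0.05. No tested probe set passed limma's test under either setting. At an unadjusted p under 0.05 were 3089 of 28531 without the trend and 4551 of 45037 with no dim limit.

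Among other genes that activate acyl groups, Acss2 and Aacs were lower in KRAP-/- liver. Of 14 further acyl-CoA synthetases, 9 were tested, of which 2 were lower, none higher and 7 did not pass, with a median log2 fold change of -0.35. Acss2, which makes acetyl-CoA from acetate in the cytosol, averaged 29.7 ± 1.54 over the KRAP-/- livers and 108 ± 30.4 over the wild-type livers (SD, n = 3 each), which differed by -1.82 on the log2 scale (adjusted p = 8.6e-04 by limma). Aacs, which activates acetoacetate for lipid synthesis, had -1.35 at its brightest probe set (adjusted p = 0.0067). Acsl4, the family member that prefers arachidonic acid, averaged 19.1 ± 1.22 over the KRAP-/- livers and 25.0 ± 0.227 over the wild-type livers, -0.39 (adjusted p = 0.095).

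Other carriers and uptake genes gave no calls. Of 5 further fatty acid binding proteins 2 were tested and neither passed, Fabp12 as given above and Fabp3, the heart form, with 0.18 (adjusted p = 0.83). Of 11 further uptake genes 8 were tested and none passed, with a median of 0.01. At an unadjusted p under 0.05 by limma, 2 were higher and none lower, against 5.58% and 9.3% of all tested probe sets. The largest changes were 0.60 for Vldlr, a receptor of triglyceride-rich lipoproteins (adjusted p = 0.10), and 0.37 for Scarb1, the HDL receptor (adjusted p = 0.078). Both had all KRAP-/- livers above all wild-type livers, as did 7.80% of all tested probe sets. Slc27a5, the bile acyl-CoA synthetase and transporter of liver, averaged 304 ± 15.1 over the KRAP-/- livers and 305 ± 30.5 over the wild-type livers (SD, n = 3 each).

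Fabp1, Cd36 and Slc27a2 are known targets of PPARα, the receptor that turns on fatty acid use in fasting. Of 14 PPARα targets outside the set, 11 were tested, of which 1 was higher, none lower and 10 did not pass, with a median log2 fold change of 0.30 beside -0.04 over all tested probe sets. By the same measure 0.431% of all tested probe sets were higher. At an unadjusted p under 0.05, 7 were higher and 1 lower, against 5.58% and 9.3% of all tested probe sets. The pairs differed, with KRAP-/- above wild-type at 9 of the 11 in pair 1, 10 in pair 2 and 5 in pair 3. The summed signal of the list was 1470, 1500 and 1590 in KRAP-/- livers of pairs 1, 2 and 3, against 1120, 1090 and 1620 in wild-type livers, so that the groups overlapped through the wild-type liver of pair 3. Angptl4, a secreted inhibitor of lipoprotein lipase, averaged 54.7 ± 1.19 over the KRAP-/- livers and 33.4 ± 4.29 over the wild-type livers (SD, n = 3 each), and was higher by limma (log2 change 0.72, adjusted p = 0.011). The largest change of the list went the other way, at -0.80 for Pdk4 (adjusted p = 0.26), the 1 lower at an unadjusted p under 0.05.

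**Figure D4:**
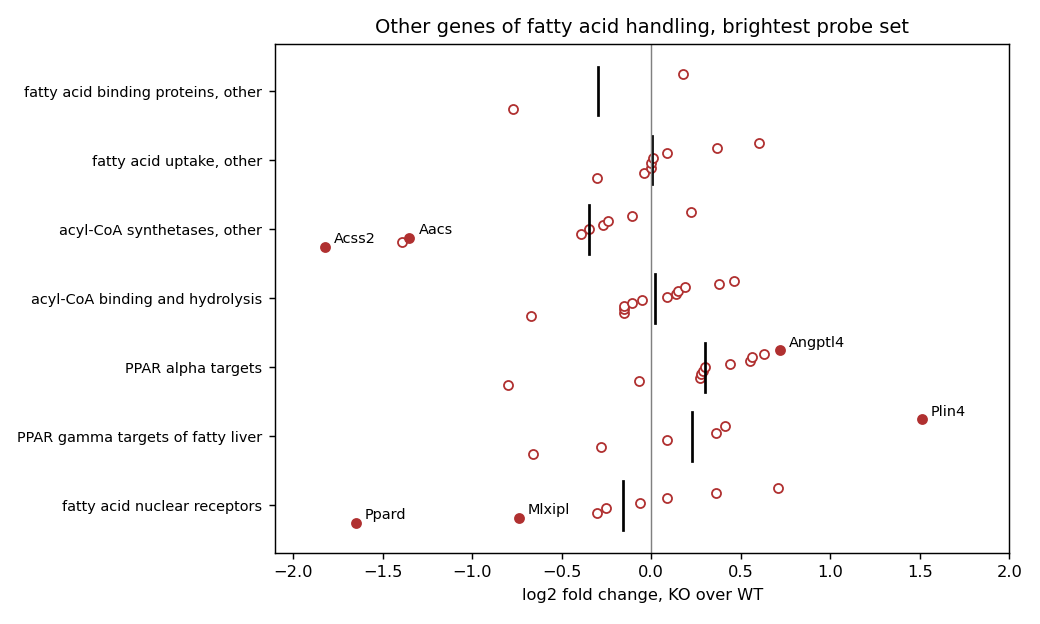
Log2 fold change of KRAP-/- (KO) over wild-type (WT) for other genes of fatty acid handling, by list, each at its brightest probe set; genes past an adjusted p of 0.05 by limma are filled, and the upright bar of a list is its median. Acss2, Aacs, Ppard and Mlxipl lie below 0 and Angptl4 and Plin4 above it among the genes that passed.

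The genes whose levels ran most like those of Fabp5 over the 6 livers were dim. The measure was the root mean square difference of log2 values, each gene centred on its own mean, over 13208 genes at their brightest tested probe set. The 5 closest were Kif3c, a kinesin (0.157), Tbata (0.207), Fmn1, a formin (0.231), Spc25, a kinetochore protein (0.246), and Clip3 (0.25). None of the 5 passed the test. Their log2 fold changes, -1.27 to -0.93, lie near that of Fabp5 because of how these genes were chosen. Their mean levels were 0.541 to 1.56 in KRAP-/- and 1.03 to 3.60 in wild-type livers.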

How the data were processed

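Livers of 3 littermate pairs, each a KRAP-/- and a wild-type mouse, were profiled on Affymetrix GeneChip mouse arrays. The authors deposited linear signal intensities from GCOS, per the labels, 1 column per mouse. The percentile and wild-type scaling that the methods describe is not in these values.

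Each intensity was divided by its array median. After 64 control probe sets were left out, 45037 remained, of which 34945 had 1 gene symbol, 932 several and 9160 none. Scaled values under 0.1 were set to 0.1 before log2. The 28531 probe sets whose mean reached 0.5 went into limma (version 3.58.1 under R 4.3.3), with pair as a block, an intensity trend and Benjamini-Hochberg adjustment over all of them. All adjusted p-values are from this fit unless stated. The labels number the livers 1 to 3 within each genotype. The methods name 3 pairs of littermates and compare livers of the same number. The correlation of littermates' deviations from the genotype means was 0.0429, 0.00954 and -0.0124, so the values do not by themselves show the pairing. The fit was also run on simulated data with known changes, normal noise and a shared pair effect. No result here rests on that run. Named genes were all probe sets of the members and, from each list, up to 4 genes past the threshold or else the 2 with the largest change, at the brightest probe set, with the 5 genes most like Fabp5 and the neighbours of its cluster. Adgre1, Marco, Cd68, Csf1r, Vsig4, Lep, Cidec, Acsl4, Slc27a5, Ppara, Pdk4, G0s2, Krt14 and Krt1 were added after their values were seen. The members and lists were chosen with earlier results of these data known. Alternatives covered scaling, floor, pseudocount, dim limit, block, trend, probe set type and leaving out each pair. Other steps used Python 3.11.15 with pandas 2.3.3 and numpy 2.4.6, and plots matplotlib 3.10.9.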

Additional observations from a re-analysis of the deposited data

How the results depend on the processing

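Over 16 member probe sets and 13 alternatives, 188 of 207 values kept their direction and their side of the threshold. The number of member probe sets lower in KRAP-/- liver was 0 with no limit on dim probe sets and 0 without the intensity trend, when all probe sets gave 0 higher and 0 lower too. In a fit without the replicate block it was 4, with 93 higher and 255 lower over all probe sets. Leaving out a pair gave 3 to 4 lower and 0 to 1 higher member probe sets, and 288 to 469 lower and 123 to 295 higher over all. The 1.5-fold criterion took 5 member probe sets as lower, 0 at 2-fold, 3 with values as deposited and 3 after quantile normalization. Directions turned only for values near 0 or set by one pair. With a pair left out, the log2 fold change ranged from -0.13 to 0.08 and from -0.02 to 0.08 at both probe sets of Fabp1, from -0.32 to 0.16 for Fabp2 (0.09 without pair 2), from -0.89 to 0.05 at the brightest Fabp4 probe set and from -0.46 to 0.97 at the next. Fabp2 had 0.03 with values as deposited and 0.05 after quantile normalization. The causes were not tested. No signal has a detection call here, which matters most for signals near or under the array median. Such were the untested Fabp4 probe sets, Fabp12, the dimmest Acsl3 probe set, Adipoq, and Ppard in KRAP-/- livers.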

Other observations

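Ppard and Mlxipl were lower in KRAP-/- liver among 9 transcription factors of lipid metabolism, nuclear receptors with Srebf1 and Mlxipl. Of these 8 were tested, of which 2 were lower, none higher and 6 did not pass, with a median log2 fold change of -0.15. Ppard averaged 1.10 ± 0.194 over the KRAP-/- livers and 3.47 ± 0.787 over the wild-type livers (SD, n = 3 each), a change of -1.65 (adjusted p = 0.0093 from limma), and Mlxipl, the carbohydrate response factor ChREBP, averaged 40.5 ± 1.27 over the KRAP-/- livers and 68.0 ± 10.5 over the wild-type livers, a change of -0.74 (adjusted p = 0.0085). Ppara averaged 90.4 ± 6.64 over the KRAP-/- livers and 57.3 ± 18.5 over the wild-type livers, a change of 0.71 (adjusted p = 0.10), named here after its values were seen.

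Of 8 genes listed for PPARγ in fatty liver, its own gene Pparg among them, 6 were tested. Of these 1 was higher, none lower and 5 did not pass, with a median of 0.23. By the same measure 0.431% of all tested probe sets were higher. At an unadjusted p under 0.05, 2 were higher and 1 lower, against 5.58% and 9.3% of all tested probe sets. The lower one was G0s2, with -0.66 (adjusted p = 0.31). Plin4, a lipid droplet coat protein, averaged 4.67 ± 1.04 over the KRAP-/- livers and 1.64 ± 0.357 over the wild-type livers, 1.51 higher in log2 (adjusted p = 0.020, limma). Of 12 genes that bind or split acyl-CoA none passed limma's test (median 0.02). At an unadjusted p under 0.05, 2 of them were higher and 1 lower, against the same 5.58% and 9.3%. The largest changes were -0.67 for the thioesterase Acot7 (adjusted p = 0.068) and 0.46 for Acot3 (adjusted p = 0.31).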
